A study of Arabidopsis thaliana with 9 samples.

Results

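The caleosin gene RD20 and 8 other genes known from early dehydration or cold responses of Arabidopsis thaliana are described here: RD20 (AT2G33380), RD22 (AT5G25610), ERD1 (AT5G51070), ERD15 (AT2G41430), ERD6 (AT1G08930), ERD7 (AT2G17840), LEA14 (AT1G01470), COR413-PM1 (AT2G15970) and COR413IM1 (AT1G29395). They were taken by locus identifier, not by a measured value, although earlier results of these data were known. They are 9 of the 21176 loci in the deposited table. All 9 passed the filter on low values, among 18650 loci tested. RNA-seq was run on rosette leaves from Col-0 plants, aged 5 weeks and grown in water culture. Control plants received no added salt. Phase 0 plants were harvested 1 h into a 105 mM NaCl shock. Phase 1 plants were taken 2 days after the salt, added in steps of 15 mM per day, had reached 90 mM. Each group has 3 libraries, and the phases differ from each other in final dose, duration and manner of salt addition. The labels do not say when in the day leaves were cut or whether replicates were separate plants, so p-values measure only the spread between these libraries.

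RD and ERD genes were named in screens for transcripts that accumulate when Arabidopsis plants dry out, the ERD set being the early one. Part of this response runs through abscisic acid (ABA), whose ABF factors bind promoter elements with the ABRE core, and part through DREB/CBF factors, which bind the DRE/CRT core of drought and cold genes. The products have unlike roles: RD20 is a calcium-binding caleosin of lipid droplets, ERD6 a sugar transporter, ERD1 a chloroplast Clp chaperone subunit, and the COR413 proteins span membranes of the cell surface or the chloroplast envelope.

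The values are the authors' normalised counts, rounded to whole numbers, and summed to between 22786946 and 27820610 per library. The share of organelle-encoded transcripts was 0.605% in Phase 0 replicate 2 and between 0.0414% and 0.0575% elsewhere. Leaf mesophyll markers were abundant throughout (5 of 5 in the table), and their summed level was 1425154 to 1654442 in control, 1184676 to 1272326 in Phase 0 and 1014960 to 1203708 in Phase 1 libraries. Guard cell markers (5 of 5 in the table) summed to 1622 to 1966, 1924 to 2187 and 2061 to 2394. These 2 marker sums differed between groups, but Phase 0 and Phase 1 overlapped in both, and control and Phase 0 in the guard cell sum. Not every marker followed its sum. From control to Phase 1 the guard cell marker KAT1 went from 823 to 1077 up to 1186 to 1327, while FMA was at 264 to 412 and 265 to 380. Among mesophyll markers CAB1 went from 515326 to 608656 down to 300787 to 343564, while GAPA was at 52331 to 60504 and 45818 to 67715. The part of these markers in the results below was not tested. Of the root markers 1 of 6 was in the table, at 0 to 2, and of the seed markers 0 of 5. Of the flower and pollen markers 1 of 4 was in it, at 16 to 37.

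After the shock, RD20 and ERD7 rose, and in Phase 1 RD20 and RD22 stood above control while ERD15, ERD6, ERD7, LEA14, COR413-PM1 and COR413IM1 stood below it. In Phase 0 against control 2 of the 9 genes rose, 0 fell and 7 did not pass an adjusted p of 0.05 in limma, beside 2.93% of all tested genes called (1.28% higher, 1.66% lower). At an unadjusted p under 0.05 the counts were 3 higher and 0 lower. In Phase 1 against control 2 rose, 6 fell and 1 did not pass, beside 36.1% of all genes called (17.4% higher, 18.6% lower). Phase 1 against Phase 0 gave 1 higher, 6 lower and 2 that did not pass, beside 28.1% (13.7% higher, 14.4% lower). The median log2 fold changes of the 9 genes were 0.32, -1.08 and -1.81 in these 3 comparisons, and those of all tested genes 0.01, 0.00 and -0.01. The first 2 comparisons share the control libraries. The replicates of the 2 groups did not overlap for 3 of the 9 genes in Phase 0 against control, all higher, beside 23.2% of all tested genes (11.1% higher, 12.1% lower). They did not overlap for 7 genes in Phase 1 against control, 2 higher and 5 lower, beside 47.4% (23.7% higher, 23.7% lower). Between the phases it was also 7, 1 higher and 6 lower, beside 50.2% (24.9% higher, 25.3% lower). In whole leaves, fewer cells that hold a transcript and less transcript per cell cannot be told apart.

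**Figure D1:**
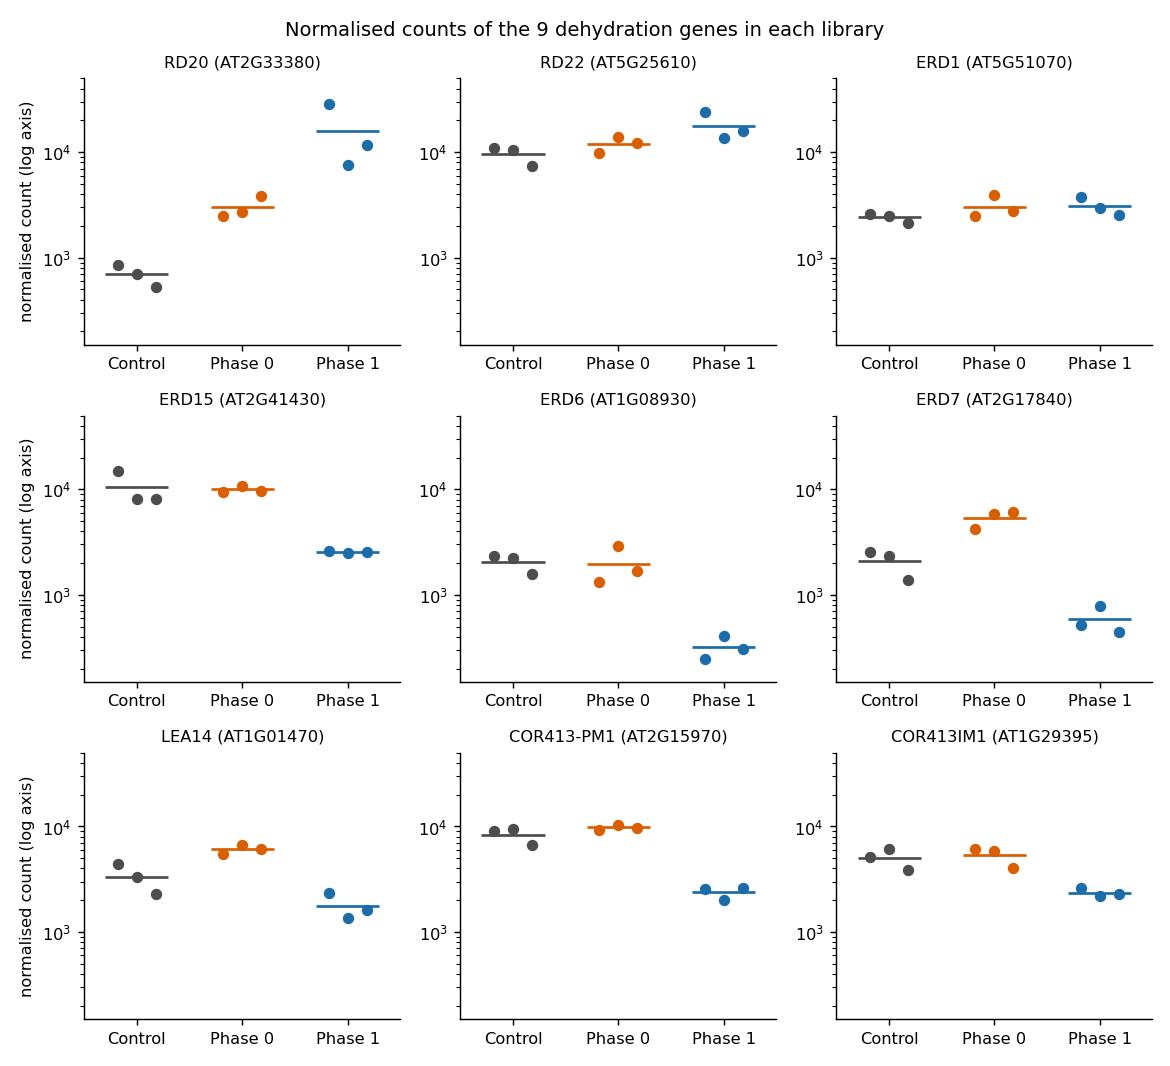
Normalised counts of the 9 genes on a log axis, with 1 point per library and a bar at the group mean (control grey, Phase 0 orange, Phase 1 blue, replicates 1 to 3 from left to right). RD20 climbs from a control mean of 699 to 15946 in Phase 1, while 6 of the 9 genes have their lowest mean in Phase 1.

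The 2 Phase 0 calls depended on single libraries. Without Control replicate 3, Phase 0 replicate 2 or Phase 0 replicate 3, 0 of the 9 genes passed, and without Phase 0 replicate 1 it was 1. Control replicate 3 was the lowest control library for all 9 genes, against 23.3% of all tested genes, and Phase 0 replicate 1 was the lowest of its group for 8 of 9, against 37.7%. Rescaling the libraries to equal totals, with organelle-encoded genes left out, moved the median log2 fold change of all genes to 0.10 in Phase 0 and 0.13 in Phase 1 against control. Under that scaling the calls among all genes were 374 higher and 195 lower in Phase 0, instead of 238 and 309, and 4238 higher and 2586 lower in Phase 1, instead of 3250 and 3474. No called direction among the 9 genes turned under this scaling or any other tried.

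**Figure D2:**
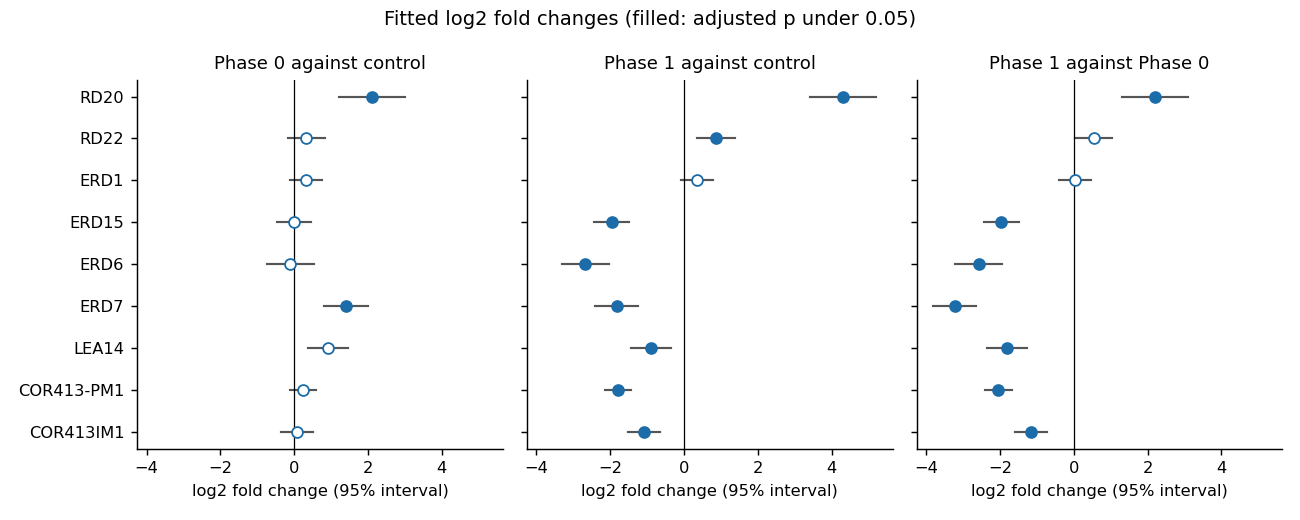
Fitted log2 fold change of each gene in the 3 comparisons (points) with its 95% interval (lines), filled where the adjusted p was under 0.05. ERD7 lies at 1.40 in Phase 0 and at -1.82 in Phase 1 against control, and RD20 at 2.10 and 4.31.

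The promoters of 4 genes are shown as examples. RD20 rose in both phases, and ERD7 rose in Phase 0 and was below control in Phase 1. ERD15 and COR413-PM1 moved alike, both lower in Phase 1 than in both other groups. Each run is the 250 bases before the annotated start, written 5′ to 3′ on the gene's own strand, from RefSeq TAIR10.1. Capitals mark ACGTG (the ABRE core) and CCGAC (the DRE/CRT core) on either strand, so that CACGT is ACGTG read on the other strand and CACGTG, the G-box, holds ACGTG on both. RD20 lies at chr2:14146556-14146805 on the minus strand, ERD7 at chr2:7757930-7758179 on the minus strand, ERD15 at chr2:17268908-17269157 on the plus strand and COR413-PM1 at chr2:6949601-6949850 on the plus strand.
RD20: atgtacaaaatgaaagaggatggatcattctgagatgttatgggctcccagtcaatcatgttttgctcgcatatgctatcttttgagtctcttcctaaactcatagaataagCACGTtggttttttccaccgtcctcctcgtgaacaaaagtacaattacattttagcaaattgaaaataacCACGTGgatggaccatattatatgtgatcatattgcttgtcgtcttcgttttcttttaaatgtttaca
ERD7: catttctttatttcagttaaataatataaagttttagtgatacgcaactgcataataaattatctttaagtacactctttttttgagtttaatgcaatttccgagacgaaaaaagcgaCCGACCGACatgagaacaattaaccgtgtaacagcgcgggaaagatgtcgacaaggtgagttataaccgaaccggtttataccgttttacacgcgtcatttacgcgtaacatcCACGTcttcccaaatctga
ERD15: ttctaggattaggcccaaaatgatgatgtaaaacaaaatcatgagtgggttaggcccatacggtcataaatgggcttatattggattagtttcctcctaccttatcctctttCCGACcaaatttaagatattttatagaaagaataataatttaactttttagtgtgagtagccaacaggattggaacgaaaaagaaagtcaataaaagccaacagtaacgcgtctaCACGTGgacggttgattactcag
COR413-PM1: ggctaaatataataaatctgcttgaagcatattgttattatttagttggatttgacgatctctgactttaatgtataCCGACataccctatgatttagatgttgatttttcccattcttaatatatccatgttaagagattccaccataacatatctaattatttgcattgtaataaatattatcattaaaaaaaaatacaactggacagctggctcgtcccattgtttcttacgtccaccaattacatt

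ACGTG was found in the windows of 6 of the 9 genes, all but ERD1, ERD6 and COR413-PM1, and in 22.9% of 27443 promoters of the same length. RD20 and COR413IM1 held 3 matches each, counting the G-box as 2, and at least 3 were found in 2.99% of promoters. The G-box itself lay before RD20, ERD15 and COR413IM1, beside 6.49% of promoters. CCGAC lay before ERD1, ERD15, ERD7 and COR413-PM1, beside 12.0%, and the ERD7 window holds 2 overlapping copies. CATGTG, an element described for the ERD1 promoter, was found before RD22 and ERD1 (11.1% of promoters), and the evening element AAAATATCT before ERD15 and LEA14 (2.36%). None of the 5 motifs was found before ERD6 in this window. ACGTG was thus present before genes that rose in Phase 1 (RD20, RD22) and before genes that fell (ERD15, ERD7, LEA14, COR413IM1). These matches describe letters, not bound sites.

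**Figure D3:**
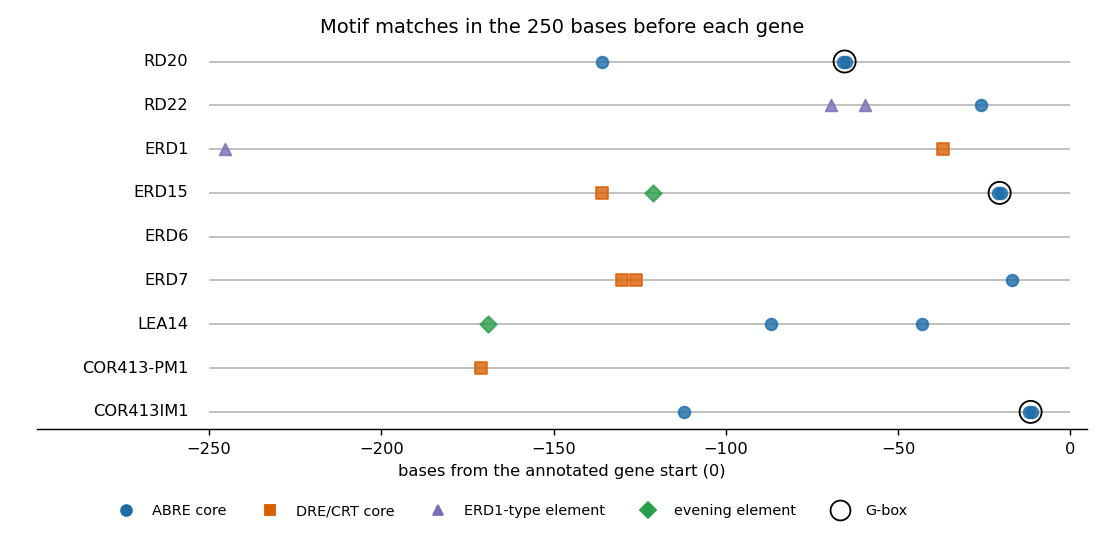
Matches to the 5 motifs in the 250 bases before each gene, by distance in bases from the annotated start at 0 (circles ABRE core, squares DRE/CRT core, triangles the ERD1-type element, diamonds the evening element, rings the G-box). The 3 G-boxes lie near the start, the farthest beginning at position -68, and the ERD6 line carries no mark.

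RD20 gave the largest rise of the 9 genes. It lies at chr2:14144831-14146555 on the minus strand, with 6 exons. Its normalised counts were 860, 703 and 533 in the control libraries, 2488, 2695 and 3827 in Phase 0, and 28749, 7515 and 11575 in Phase 1. The 3 groups did not overlap, and Phase 1 replicate 1 was 3.83 times Phase 1 replicate 2. From a control mean of 699 ± 164 (SD, n = 3), RD20 rose 4.30-fold in Phase 0 (log2 fold change 2.10, SE 0.40, limma adjusted p = 0.0236). That call ended without Control replicate 3 (adjusted p = 0.0998) or without any 1 Phase 0 library (0.0510, 0.0765 and 0.118 for replicates 1, 2 and 3). It also ended in limma without the trend (0.0520).

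In Phase 1 RD20 was 19.8-fold above control (95% interval 10.6 to 36.8, limma adjusted p = 3.82e-05), at a mean of 15946 ± 11272 (SD, n = 3). It was 4.60-fold above Phase 0 (95% interval 2.47 to 8.56, adjusted p = 0.00264). Both calls held in all 21 alternatives. The only other caleosin gene tested, CLO4, had means of 214 ± 16.7, 191 ± 19.0 and 241 ± 40.0 (SD, n = 3 each) and did not pass in any comparison. The ratio of RD20 to CLO4 within a library, not corrected for length, was 2.72 to 3.78 in control, 11.9 to 19.8 in Phase 0 and 37.2 to 118 in Phase 1. These ratio ranges did not overlap, and the exact two-sided permutation p was 0.1 for each pair of groups, the smallest that 3 against 3 allows.

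RD22, a BURP domain protein gene that responds to ABA, began at a high level and rose less. RD22 lies at chr5:8914122-8916856 on the minus strand, with 4 exons. Counts were 10858, 10406 and 7463 in control, 9812, 13852 and 12213 in Phase 0, and 23820, 13555 and 15838 in Phase 1. Control and Phase 0 overlapped, and so did Phase 0 and Phase 1, while every Phase 1 library was above every control library. RD22 was 1.82-fold above control in Phase 1 (log2 fold change 0.87, SE 0.23, limma adjusted p = 0.0134), a call that ended without Control replicate 3 (adjusted p = 0.0527). For Phase 0 against control the log2 difference was 0.33 (95% interval -0.18 to 0.83, adjusted p = 0.467). Phase 1 against Phase 0 gave 0.54 (adjusted p = 0.101), and passed under quantile normalisation (0.0341), with array weights (0.0398) and with libraries rescaled to equal totals without organelle-encoded genes (0.0479). Of 2 BURP relatives tested, PG2 (AT1G70370) fell in Phase 1, from 3396 ± 382 to 1806 ± 188 (SD, n = 3 each, limma adjusted p = 0.000638), and PG1 did not pass. PG1 stood at only 33 to 68 normalised counts over the libraries, so the ratio to it is coarse. RD22 over PG1 within a library was 149 to 265 in control, 189 to 235 in Phase 0 and 219 to 701 in Phase 1. Every pair of these ranges overlapped. The exact two-sided permutation p was 0.6 and 0.3 for Phase 0 and Phase 1 against control, and 0.2 between the phases.

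ERD1, which encodes the ClpD subunit of the chloroplast Clp protease system, passed in no comparison. It lies at chr5:20764096-20768764 on the plus strand, with 12 exons. Counts were 2617, 2468 and 2136 in control, 2476, 3918 and 2767 in Phase 0, and 3788, 2935 and 2560 in Phase 1, so that every pair of groups overlapped. The log2 difference from control was 0.32 in Phase 0 (95% interval -0.11 to 0.75, limma adjusted p = 0.399) and 0.35 in Phase 1 (-0.08 to 0.77, adjusted p = 0.183). Phase 1 and Phase 0 differed by 0.03 (-0.40 to 0.45, adjusted p = 0.931). Under the authors' scaling, the intervals against control reach up to 1.68 times control in Phase 0 and 1.71 times in Phase 1. Over the 21 alternatives the Phase 1 log2 difference from control ranged from 0.19 to 0.48, so a higher limit is not excluded. Of 3 other chloroplast Clp/Hsp100 genes, CLPB3, a chloroplast disaggregase, rose in Phase 1 from 3064 ± 164 to 7897 ± 1362 (SD, n = 3 each, limma adjusted p = 0.000145). HSP93-III fell from 948 ± 334 to 411 ± 116 (SD, n = 3 each, limma adjusted p = 0.00918), and CLPC1 did not pass. ERD1 over CLPC1 within a library was 0.0569 to 0.0640 in control, 0.0684 to 0.0872 in Phase 0 and 0.0696 to 0.0928 in Phase 1. In this ratio both phases lay above control without overlap, and they overlapped each other (p = 0.2, exact two-sided permutation). The exact p against control was 0.1 each, the smallest that 3 against 3 allows, and ERD1 itself overlapped in every pair. Among all tested genes taken singly, 23.2% did not overlap in Phase 0 against control and 47.4% in Phase 1.

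ERD15, a small protein described as a brake on ABA responses, did not pass after the shock and fell in Phase 1. It lies at chr2:17269158-17270542 on the plus strand, with 2 exons. Control counts were 15059, 8147 and 8094, Phase 0 counts 9497, 10743 and 9661, and Phase 1 counts 2595, 2505 and 2567. Control replicate 1 stood above the other controls, and the Phase 1 libraries differed from each other by a coefficient of variation of 1.80%. The Phase 1 level was 3.90-fold below control (95% interval 2.83 to 5.38, limma adjusted p = 8.13e-05) and 3.89-fold below Phase 0 (adjusted p = 9.53e-05), with no overlap in either pair. In Phase 0 the log2 difference from control was -0.004 (95% interval -0.47 to 0.46, adjusted p = 0.995).

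AT4G14270, the closest relative of ERD15 in the list used, also fell in Phase 1, from 1503 ± 493 in control to 161 ± 80.7 (SD, n = 3 each, log2 fold change -3.28, limma adjusted p = 4.90e-05). The ratio of ERD15 to AT4G14270 within a library was 6.59 to 7.27 in control, 4.39 to 5.43 in Phase 0 and 10.2 to 26.1 in Phase 1. The 3 ranges did not overlap, with an exact two-sided permutation p of 0.1 for each pair of groups.

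ERD6 had the largest fall from control of the 9 genes. It encodes a sugar transporter of the monosaccharide transporter family, and lies at chr1:2873300-2877270 on the plus strand, with 17 exons. Counts were 2322, 2228 and 1566 in control, 1312, 2903 and 1695 in Phase 0, and 245, 407 and 306 in Phase 1. Every Phase 1 library was below every other library, while control and Phase 0 overlapped, with the lowest and the highest of those 6 values both in Phase 0. ERD6 was 6.41-fold below control in Phase 1 (95% interval 4.12 to 9.97, limma adjusted p = 8.60e-05) and 5.94-fold below Phase 0 (adjusted p = 0.00013). The Phase 0 difference from control was -0.11 on the log2 scale (95% interval -0.75 to 0.53, adjusted p = 0.878).

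Its relatives did not move as 1 group. Of 15 ERD6-like transporter genes tested, 0 rose and 2 fell in Phase 0, beside 1.66% of all genes called lower. The count of 2 became 1 in 13 of 21 alternatives, among them each library left out in turn except Control replicate 1. AT1G19450 was close to the threshold (limma adjusted p = 0.0489). In Phase 1 against control 7 rose, 3 fell and 5 did not pass, beside 17.4% of all genes called higher and 18.6% lower. Their median log2 fold change in Phase 1 was 0.39, beside 0.00 for all genes and -2.68 for ERD6. ERD6 over ESL1, its closest tested relative by coding sequence, was 4.69 to 8.90 in control and 2.90 to 7.81 in Phase 0 (exact two-sided permutation p = 0.4). In Phase 1 this ratio was 0.776 to 1.99, below both other groups (exact p = 0.1 each). AT1G08890, close to ERD6 on the chromosome, fell in Phase 1 from 457 ± 127 to 66.7 ± 6.43 (SD, n = 3 each, limma adjusted p = 1.55e-05). AT2G48020 fell in Phase 0 from 560 ± 121 to 247 ± 37.3 (SD, n = 3 each, limma adjusted p = 0.00815) and was 721 ± 33.0 in Phase 1. The low-count gene AT4G04760 rose in Phase 1 from 8 ± 1 to 22.7 ± 3.51 (SD, n = 3 each, limma adjusted p = 0.0163), a call that ended without Phase 1 replicate 1 (adjusted p = 0.0686) or replicate 3 (0.0519).

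ERD7 moved in opposite directions in the 2 phases. It encodes a protein of the senescence/dehydration-associated family, and lies at chr2:7755605-7757929 on the minus strand, with 3 exons. Control counts were 2521, 2310 and 1389, Phase 0 counts 4215, 5792 and 6115, and Phase 1 counts 516, 788 and 448. No 2 groups overlapped, with Phase 0 highest and Phase 1 lowest. ERD7 rose 2.64-fold in Phase 0 (log2 fold change 1.40, SE 0.26, limma adjusted p = 0.0223). That call ended without Control replicate 3 (adjusted p = 0.0717), Phase 0 replicate 2 (0.0934) or Phase 0 replicate 3 (0.117).

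In Phase 1 ERD7 was 3.54-fold below control (95% interval 2.36 to 5.31, limma adjusted p = 0.000534). Phase 1 lay 9.34-fold below Phase 0 (95% interval 6.22 to 14.0, adjusted p = 1.83e-05), the largest difference between the phases among the 9 genes. Both held in all 21 alternatives. Of 4 relatives tested, 0 passed in either comparison with control in limma, beside 2.93% and 36.1% of all genes called. At an unadjusted p under 0.05 the counts were 1 and 2, all higher. AT3G21600 missed in Phase 1 against control at an adjusted p of 0.0514 and passed in 6 of 21 alternatives, among them those without Control replicate 2 (0.0271) and without Phase 0 replicate 1 (0.0337). In that comparison 3 of the 4 relatives passed when libraries were rescaled to equal totals without organelle-encoded genes. AT3G21600 had 46.3 ± 18.8 normalised counts in Phase 0 and 89.3 ± 17.0 in Phase 1 (SD, n = 3 each). It passed between the phases (limma adjusted p = 0.0456) and missed in 10 of 21 alternatives, among them those without Control replicate 3, Phase 0 replicate 2 or 3, or any 1 Phase 1 library (adjusted p from 0.063 to 0.158). The ratio of ERD7 to its closest relative by coding sequence, AT4G35985 (70.9% identity), was 12.3 to 22.0 in control, 29.9 to 34.9 in Phase 0 and 4.99 to 5.56 in Phase 1, without overlap and with an exact two-sided permutation p of 0.1 for each pair.

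LEA14, a late embryogenesis abundant protein of the LEA_2 family, gave its highest values after the shock and its lowest in Phase 1. It lies at chr1:171525-172948 on the minus strand, with 2 exons. Counts were 4417, 3298 and 2283 in control, 5468, 6674 and 6135 in Phase 0, and 2357, 1355 and 1608 in Phase 1. All Phase 0 libraries were above all others, while Control replicate 3 lay below Phase 1 replicate 1. LEA14 was 3.52-fold lower in Phase 1 than in Phase 0 (95% interval 2.40 to 5.15, limma adjusted p = 0.000456), and this held in all 21 alternatives.

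Against control LEA14 was less settled. The Phase 0 log2 difference of 0.92 (95% interval 0.37 to 1.47) had an unadjusted p of 0.00392 and missed at a limma adjusted p of 0.0825. It passed under quantile normalisation (0.0421), with array weights (0.00341), with libraries rescaled to equal totals without organelle-encoded genes (0.0337) and without Control replicate 1 (0.0333). The Phase 1 fall, 1.86-fold with limma adjusted p = 0.0175, ended with array weights (0.0645) and without Phase 1 replicate 2 (0.0689) or Phase 1 replicate 3 (0.0514). Of 2 relatives of LEA14 tested, 0 passed in any comparison in limma, beside 2.93%, 36.1% and 28.1% of all genes called. At an unadjusted p under 0.05 the count was also 0. With libraries rescaled to equal totals without organelle-encoded genes, 1 of the 2 relatives passed as higher in Phase 1 against control. LEA14 over AT2G46140, the closer relative by coding sequence, was 23.8 to 48.5 in control and 43.8 to 59.1 in Phase 0 (exact two-sided permutation p = 0.2). In Phase 1 this ratio was 12.2 to 19.5, below both other groups (exact p = 0.1 each).

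COR413-PM1, a multispanning protein of the plasma membrane known from cold acclimation, lies at chr2:6949851-6951192 on the plus strand, with 4 exons. Counts were 8997, 9466 and 6604 in control, 9293, 10411 and 9681 in Phase 0, and 2571, 1990 and 2621 in Phase 1. The Phase 1 libraries lay far below the others, and control and Phase 0 overlapped. COR413-PM1 was 3.47-fold below control in Phase 1 (95% interval 2.72 to 4.44, limma adjusted p = 2.84e-05) and 4.12-fold below Phase 0 (adjusted p = 1.38e-05). In Phase 0 it differed from control by 0.25 on the log2 scale (95% interval -0.11 to 0.60, adjusted p = 0.439).

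COR413IM1, from the chloroplast inner envelope, had the same order of groups with a smaller step. COR413IM1 lies at chr1:10288129-10289666 on the minus strand, with 6 exons. Counts were 5164, 6142 and 3847 in control, 6087, 5830 and 4075 in Phase 0, and 2611, 2195 and 2271 in Phase 1. Control and Phase 0 spanned nearly the same range, and all Phase 1 values lay below both. COR413IM1 was 2.11-fold below control in Phase 1 (95% interval 1.56 to 2.85, limma adjusted p = 0.00197) and 2.23-fold below Phase 0 (adjusted p = 0.00166), with a Phase 0 log2 difference from control of 0.08 (95% interval -0.35 to 0.52, adjusted p = 0.863).

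Of the other 3 COR413 genes tested, 0 passed in any comparison in limma, beside 2.93%, 36.1% and 28.1% of all genes called. At an unadjusted p under 0.05, 1 was higher in Phase 0, 0 passed in Phase 1 and 2 were lower between the phases. With array weights 1 passed in Phase 0 and 2 between the phases, and the latter 2 also without Phase 1 replicate 1. The neighbour of COR413IM1, COR314-TM2 (AT1G29390), shares 86.8% of aligned coding bases with it. This was the highest share of any of the 9 genes with a listed relative, and relatives were not aligned with each other. No 75-base window of COR413IM1, or of any other of the 9 genes, was shared with another gene's transcripts in RefSeq TAIR10.1. The ratio of COR413IM1 to COR314-TM2 was 2.85, 3.99 and 2.59 in control, 3.56, 3.28 and 2.22 in Phase 0, and 1.60, 2.57 and 1.61 in Phase 1. The Phase 1 ratios lay below the control ratios (exact two-sided permutation p = 0.1) and overlapped those of Phase 0 (p = 0.2, exact). The ratio of COR413-PM1 to COR413-PM2 was 6.64 to 8.02 in control, 8.03 to 8.36 in Phase 0 and 2.33 to 2.73 in Phase 1, lower in Phase 1 than in both other groups (exact two-sided permutation p = 0.1 each).

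**Figure D4:**
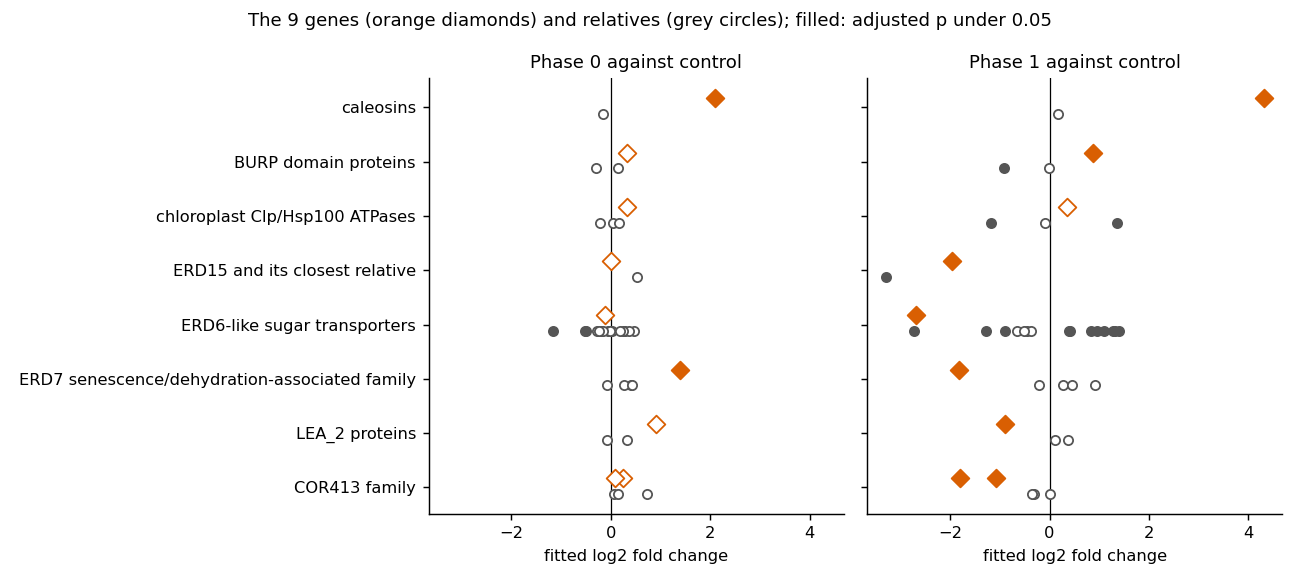
Fitted log2 fold changes of the 9 genes (diamonds) and their listed relatives (circles) against control, 1 line per family, filled where the adjusted p was under 0.05. In Phase 1 the ERD6-like transporters spread over both sides of 0, and ERD7, LEA14 and the COR413 pair lie to the left of their relatives.

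The order of the 9 genes by level changed between groups. Per kilobase of the longest annotated transcript, the control means ran from ERD15 at 8524, COR413-PM1 at 7694, RD22 at 5545 and COR413IM1 at 4947 down to LEA14 at 2472, ERD7 at 1120, ERD6 at 982, ERD1 at 687 and RD20 at 669 normalised counts. Ranges of neighbours in that order overlapped except between COR413IM1 and LEA14, LEA14 and ERD7, and ERD6 and ERD1. In Phase 0 COR413-PM1 (9019) and ERD15 (8143) led with overlapping ranges, RD20 was at 2874 beside ERD7 at 2903, and ERD6 (948) and ERD1 (871) came last. Gaps between ranges lay only below LEA14 and below RD20.

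In Phase 1 the highest mean per kilobase was that of RD20, at 15260, whose range of 7191 to 27511 overlapped that of RD22 (mean 10271, range 7849 to 13793). Both lay clear of COR413IM1 at 2310, COR413-PM1 at 2204 and ERD15 at 2088. LEA14 followed at 1316, then ERD1 at 883, ERD7 at 316 and ERD6 at 154, with no overlap between ERD1, ERD7 and ERD6. RD20 thus had the lowest mean of the 9 genes in control and the highest in Phase 1.

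**Figure D5:**
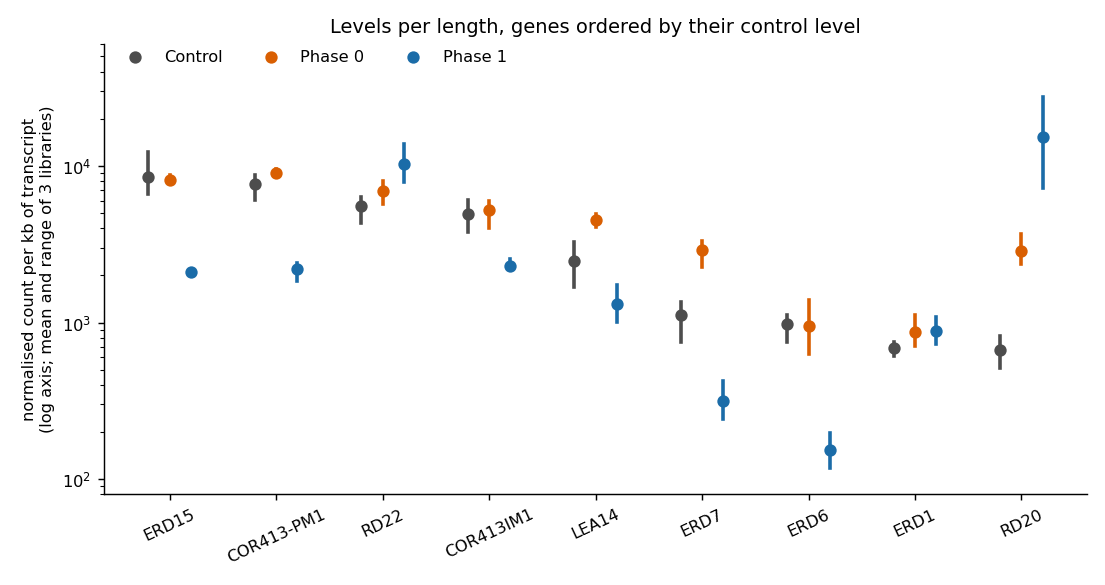
Normalised count per kilobase of transcript on a log axis for the 9 genes in order of control level, with the mean (point) and range (line) of 3 libraries per group. RD20 goes from 669 in control to 15260 in Phase 1, and ERD6 from 982 to 154.

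Other genes of the RD and ERD series, taken from 2 chosen lists that need not be complete, were set beside the 9. Of 9 other ERD genes, 1 rose in Phase 0 (ERD10, a dehydrin), 1 fell (ERD5, a proline dehydrogenase) and 7 did not pass, beside 2.93% of all genes called. These 2 calls became 1 without Control replicate 3, 0 without Phase 0 replicate 2 or Phase 0 replicate 3, and 5 with array weights. In Phase 1 against control 1 rose, 4 fell and 4 did not pass, in limma. Of all tested genes, 17.4% were called higher and 18.6% lower in that comparison. The riser was ERD9, a glutathione transferase, from 855 ± 226 to 6520 ± 846 (SD, n = 3 each, limma adjusted p = 5.15e-06). ERD3 fell to 1097 ± 166 from 3434 ± 1017 (SD, n = 3 each, limma adjusted p = 0.000199), and GSTF6, a glutathione transferase with a close tandem copy, to 701 ± 151 from 1968 ± 1031 (adjusted p = 0.0308). The GSTF6 call ended in 6 of 21 alternatives, among them those without Control replicate 1 or 2 or Phase 1 replicate 2 or 3 (adjusted p from 0.0614 to 0.0953).

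Of 8 other RD genes, 3 rose and 0 fell in Phase 0, beside 1.28% of all genes called higher. The count was 1 without Control replicate 3 or without Phase 0 replicate 3, and 5 with array weights. In Phase 1 against control 3 rose, 4 fell and 1 did not pass, in limma. Of all tested genes, 17.4% were called higher and 18.6% lower in that comparison. RD19, a cysteine protease, fell in Phase 1 from 11871 ± 3620 to 1510 ± 207 (SD, n = 3 each, limma adjusted p = 6.06e-06). LTI78, also known as RD29A, rose in Phase 0 from 8916 ± 3104 to 32529 ± 2133 (limma adjusted p = 0.00592) and lay at 3971 ± 1213 in Phase 1 (SD, n = 3 each, adjusted p = 0.00722), the same order of groups as ERD7. RD28, an aquaporin with a near-identical neighbour, so that its count is uncertain, rose in both phases, from 166 ± 17.6 to 427 ± 96.2 and 1259 ± 342 (SD, n = 3 each, limma adjusted p = 0.0127 and 1.19e-05), the same order as RD20. Its Phase 0 call ended without Control replicate 3 (adjusted p = 0.0593) or Phase 0 replicate 3 (0.0716).

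Transcripts of factors described upstream of some of the 9 genes were tested for 9 of 12 listed. MYC2 and ZFHD1 were not among the deposited loci, and NAC3 did not pass the filter on low values. RD26 is also 1 of the 8 other RD genes above, and is counted in both lists. In Phase 0, 5 rose (NAC019, RD26, ABF2, ABF3 and DREB1A), 0 fell and 4 did not pass, beside 1.28% of all tested genes called higher. Without Control replicate 3 the count was 1, and without Phase 0 replicates 1, 2 and 3 in turn it was 2, 3 and 0. In Phase 1 against control 3 rose (RD26, ABF2, ABF3), 3 fell (CBF1, CBF2, DREB1A) and 3 did not pass, in limma. Of all tested genes, 17.4% were called higher and 18.6% lower in that comparison. DREB1A, a cold and drought factor also called CBF3, rose from 270 ± 4.58 to 674 ± 140 in Phase 0 (limma adjusted p = 0.00754, 0.0577 without Phase 0 replicate 3) and was 34.7 ± 6.03 in Phase 1 (SD, n = 3 each, adjusted p = 4.82e-06). CBF1 and CBF2 fell in Phase 1, from 68.0 ± 52.6 to 2.67 ± 2.08 and from 235 ± 235 to 12.3 ± 2.89 (SD, n = 3 each, limma adjusted p = 0.00041 and 0.000559), with Control replicate 1 highest in both.

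The 9 genes fell into no single pattern across libraries. Over the 9 libraries, the log2 values of RD20 and RD22 had a Pearson r of 0.91, and those of ERD15, ERD6, ERD7, LEA14, COR413-PM1 and COR413IM1 had pairwise r from 0.77 to 0.96, described without a test since group differences carry these values. RD20 and ERD6 had r = -0.84. Among 6815 other genes with a symbol and a mean of at least 100, those most like RD20 by the same measure were SKP2A (0.991), CSLG1 (0.988), FBS3 (0.988), RD28 (0.988) and PAP1 (0.984). PAP1, an anthocyanin regulator, went from 68.0 ± 12.3 to 257 ± 82.5 and 1585 ± 1351 (SD, n = 3 each). The single most similar gene was ACX1 for RD22 (0.96), FUT12 for ERD1 (0.93), GR-RBP2 for ERD15 (0.995), FQR1 for ERD6 (0.99), PFK7 for ERD7 (0.98), ANNAT1 for LEA14 (0.98), VAM3 for COR413-PM1 (0.997) and LSH10 for COR413IM1 (0.96).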

How the data were processed

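RNA-seq libraries from rosette leaves (3 control, 3 Phase 0, 3 Phase 1) were made from 4 µg of RNA with a stranded mRNA kit and read as 75-base single ends, per the labels' protocols. Tools listed in the submitters' processing notes are DESeq2 1.62, featureCounts 1.4.5-p1, Subread, STAR 2.4.0a and FastQC, and the build listed is TAIR10, with no role or order. The authors deposited 1 score per gene and library, a normalised count rounded to whole numbers as the name of the table and the values show. The handling of strand in the counting is not given in the sources used here. As these scores are not raw counts, no count test was run, and depth is known only as the total of the normalised values.

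Values were log2-transformed after adding 1, and a single limma model (version 3.58.1, trend option, R 4.3.3) of the 3 groups was fitted to all 9 libraries. Loci with a mean of at least 10 were tested, and p-values were adjusted over all of them by the Benjamini-Hochberg method at a threshold of 0.05. Fold changes are on this log2 scale, which understates those of low genes. The script was checked on simulated data. Alternatives were other pseudocounts, filters, normalisations, models, the replicate number as a block, and libraries left out. Array weights were estimated gene by gene, since the default estimate did not converge.

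The 9 genes, 11 gene lists and 5 marker lists were chosen with earlier results of these data known. All 9 genes are named, with up to 3 relatives per list by the largest called change, and the most similar genes by Pearson r. CLO4, PG1, CLPC1, ESL1, ERD5, ERD10, NAC019, RD26, ABF2, ABF3, MYC2, ZFHD1, NAC3, COR314-TM2, COR413-PM2, AT1G19450, AT2G46140 and AT4G35985 were named outside that rule. They complete a count or are the closest relative by coding sequence among tested genes, as untested relatives can be closer. How often the ratios of other gene pairs separate between groups was not tested. The markers KAT1, FMA, CAB1 and GAPA were named to show the spread within their lists. Coordinates, transcript lengths and sequences are from RefSeq TAIR10.1, matched by locus for 9 of 9 genes; the table itself gives none. Python 3.11.15, numpy 2.4.6, pandas 2.3.3, Biopython 1.88 and matplotlib 3.10.9 were used.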

Additional observations from a re-analysis of the deposited data

How the results depend on the processing

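Of 567 values of the 9 genes under alternatives (21 per comparison), 545 kept direction and side of the threshold, 15 lost the threshold, 7 gained it and 0 reversed. The counts of the 9 genes past the threshold ranged over the single libraries left out from 0 to 3 in Phase 0 (2 with all libraries), from 7 to 8 in Phase 1 against control (8) and from 7 to 7 between the phases (7). The Phase 0 count was 1 in limma without the trend. Leaving out the pair Control replicate 1 and Phase 0 replicate 2 gave 0, ended the Phase 0 calls of RD20 (AT2G33380, adjusted p = 0.0846) and ERD7 (AT2G17840, 0.0717), and ended the Phase 1 call of LEA14 (AT1G01470, 0.0599) and the Phase 0 call of LTI78 (AT5G52310, 0.0542). Calls among all genes in Phase 0 were 547, ranged from 118 to 882 with 1 library left out, and were 2645 with array weights and 212 without that pair. They ranged from 4892 to 6757 in Phase 1 against control and from 3379 to 6710 between the phases. The low ends in Phase 0 came without Phase 0 replicate 3 (118), Control replicate 3 (173) and Phase 0 replicate 2 (183), the last also giving the 3379. The cause was not tested.

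Same-numbered libraries did not deviate together (correlations of deviations from -0.25 to 0.25), so the labels' numbers were not taken to pair them. With the replicate block, 2, 8 and 7 of the 9 genes passed, as without it, and 372, 6261 and 4835 of all genes. Among 17 named relatives 1028 of 1065 values kept direction and side, and 0 reversed. Among counts of the gene lists, 73 of 693 moved by over 1.5 times. With 3 libraries per group, a call near the threshold rests on each of them, and a gene that did not pass is not shown to be unchanged.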
